A study of Mus musculus with 21 samples.

Results

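Vehicle-treated mouse lungs taken 12 h after dosing were compared with vehicle-treated lungs taken 3 h after dosing. The arrays were chosen by their titles, 4 labelled 12 h post HBSS and 3 labelled 3 h post HBSS, which makes 7 of the 21 arrays of the series. All mice were female BALB/c mice, 8 weeks old, and each received a single aspiration into the trachea. The vehicle lungs of both times had received 50 µl of Hank's balanced salt solution (HBSS) and no agent. The other groups had received bovine serum albumin (BSA) or MACA, crude antigen prepared from the fungus Metarhizium anisopliae, in the same vehicle, with 3 arrays of BSA at 3 h, 4 of BSA at 12 h, 4 of MACA at 3 h and 3 of MACA at 12 h. The whole left lung was homogenized, so a level is an average over all of its cells, and fewer cells of a type cannot be told apart from less RNA per cell. No undosed lung was analysed here, and the clock time of dosing is not given in the labels, so hours after the procedure and time of day cannot be told apart. The labels call the arrays of a group biological replicates.

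The circadian clock of mammalian cells is a transcriptional loop that runs in nearly every tissue, the lung included. BMAL1 (gene Arntl) pairs with CLOCK or NPAS2, binds E-boxes and drives the Per and Cry repressors, the nuclear receptors Nr1d1 and Nr1d2 and the PAR bZip factors Dbp, Tef and Hlf. PER and CRY proteins then block the activators, and NR1D1 and NR1D2 repress Arntl and Npas2 through ROR elements, so the activator and repressor transcripts peak at opposite times of day. Glucocorticoids, which in rodents peak around the onset of activity and also rise with handling and stress, drive a partly overlapping set of genes that includes Per1, Fkbp5 and Zbtb16.

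Of 18 measured core clock genes, 3 were higher and 8 lower at 12 h, and of 13 clock output factors, 1 was higher and 8 lower. Called here means a Benjamini-Hochberg adjusted p under 0.05 from limma over all probe sets, and among all 12393 genes 7.4% were called, 3.82% higher and 3.58% lower. The median log2 fold, 12 h minus 3 h, was -0.37 over the core clock genes and -1.27 over the output factors, and 0 over all genes. Set against the median of all genes, both lists were also lower without scaling between arrays (-0.54 and -1.17) and with arrays scaled to one median (-0.43 and -1.28). In each of these 20 called genes the 3 arrays at 3 h and the 4 arrays at 12 h did not overlap. The same held for 889 of all 917 called genes, so it does not set the clock genes apart. The lists were chosen with earlier results of these data known, so their counts describe these arrays and are no independent test.

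The promoters of the called clock genes, which were called in both directions, are shown here because control elements of the clock are known by sequence. RefSeq windows from 250 bases before to 50 bases after a gene start (build GRCm38.p6) were given for 17 of the 20 genes, in 26 windows, and not for Per2, Bhlhe40 and Wee1. Both strands were searched for the E-box CACGTG, the D-box TTATGNAA bound by the PAR bZip factors and Nfil3, the ROR element, the cAMP response element TGACGTCA and the heat shock element. An E-box lay in 5 windows of 4 genes (Per1, Tef, Klf15 and Tspan4), a D-box in 2 windows (Per1 and Per3), a ROR element in 1 (Arntl), a cAMP response element in 1 (Hlf) and a heat shock element in 0. Among all 32851 windows of the table the shares with a match were 7.15% for the E-box, 3.385% for the D-box, 0.2192% for the ROR element, 1.79% for the cAMP response element and 0.6027% for the heat shock element. A match is a description of letters and not a measured binding site. Each run reads 5′ to 3′ along the gene, with the matched element in capitals. For each gene and element 1 match is shown. Not shown are 2 further E-boxes of Klf15, which begin 228 and 3 bases before the start, and a further D-box of Per3 at 158 bases. Also not shown is an E-box 138 bases before another start of Tef. The Arntl element starts at base 28 of the transcribed part, and the others shown lie 166, 24, 205, 127, 9, 172 and 51 bases before the start, in the order of the lines that follow it.
Arntl, ROR element (chr7:113207528-113207557, + strand): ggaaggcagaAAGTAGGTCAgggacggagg
Per1, E-box (chr11:69098753-69098818, + strand): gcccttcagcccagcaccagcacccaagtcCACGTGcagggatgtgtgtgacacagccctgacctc
Per1, D-box (chr11:69098895-69098948, + strand): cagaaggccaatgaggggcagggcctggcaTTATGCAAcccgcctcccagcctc
Per3, D-box (chr4:151044833-151044900, - strand): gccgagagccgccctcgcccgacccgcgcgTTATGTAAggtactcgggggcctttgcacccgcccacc
Tef, E-box (chr15:81802516-81802581, + strand): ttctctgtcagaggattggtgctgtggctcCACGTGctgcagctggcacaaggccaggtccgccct
Hlf, cAMP response element (chr11:90390918-90390956, - strand): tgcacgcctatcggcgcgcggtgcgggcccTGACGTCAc
Klf15, E-box (chr6:90462374-90462439, + strand): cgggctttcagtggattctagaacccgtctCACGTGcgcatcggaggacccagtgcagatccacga
Tspan4, E-box (chr7:141476299-141476364, + strand): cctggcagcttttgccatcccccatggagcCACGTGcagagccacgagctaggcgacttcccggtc

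Levels are given as log2(scaled intensity + 16), array by array in the order of the replicate numbers, and folds as log2 folds on that scale with their standard errors (4 arrays against 3). An intensity under 40.9, or a level under 5.83, lies within the noise left by background subtraction. Of 22626 probe sets, 1569 (6.93%) were called, 800 higher and 769 lower at 12 h. Each gene was read from its brightest probe set, which gave 917 called genes, 473 higher and 444 lower, of which 39 and 55 changed at least 2-fold. The median deposited intensity ran from 93.0 to 185 over the 3 h arrays and from 191 to 287 over the 12 h arrays, and the arrays were brought to one distribution before the fit. Without that step the median of all genes shifted by 0.72 on the log2 scale towards 12 h and 12588 probe sets were called higher and 84 lower, and with arrays scaled to one median the split was 557 higher and 835 lower, so every direction in the text is relative to the other genes of the same array.

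The ratio of the 3′ to the 5′ probe set of BioDn, a spiked hybridization control, was 1.81 to 1.91 on the 3 h vehicle arrays and 1.13 to 1.22 on the 12 h vehicle arrays. Over the series it was 1.62 to 1.91 on 13 arrays and 0.939 to 1.22 on 8, the latter being the 4 HBSS 12 h arrays, BSA 12 h replicates 3 and 4 and MACA 3 h replicates 3 and 4. Within the vehicle lungs time and this ratio cannot be told apart. A fit with the ratio set as a term, which takes its estimate from the BSA 12 h and MACA 3 h arrays, called 9.96% of genes, 5.16% higher and 4.8% lower. All 473 genes called higher and all 444 called lower kept their direction there, and 185 and 203 of them were called. Of the genes not called in vehicle lungs 71.6% kept their direction. That fit uses the same vehicle arrays, so a kept direction is no independent support. The ratio of 3′ to 5′ probe sets was 0.952 to 1.02 for Gapdh and 1.24 to 1.37 for actin at 3 h, against 0.913 to 1.02 and 1.16 to 1.41 at 12 h. Defining lung transcripts were among the brightest on every vehicle array, with Sftpc, the surfactant protein of alveolar type 2 cells, at 13.44 to 13.76 and Scgb1a1, the club cell secretoglobin, at 13.68 to 13.76. BSA and MACA lungs at 12 h against 3 h share no array with the vehicle comparison and are set beside it. 4.18% of genes were called in BSA lungs (2.68% higher and 1.5% lower) and 10.2% in MACA lungs (5.24% higher and 4.94% lower).

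Of the activators, Arntl and Npas2 lay under the noise level at 3 h and well above it at 12 h, and Clock was well above it at both times. Arntl (probe set 1425099_a_at) read 5.21, 5.33 and 5.36 at 3 h and 8.59, 8.70, 8.74 and 8.84 at 12 h. Npas2 (1421037_at), the partner that can replace CLOCK, read 4.00, 4.29 and 5.29 at 3 h and 7.98, 7.91, 8.32 and 8.36 at 12 h. All 3 h arrays were under the noise level for both genes and all 12 h arrays over it. The change is therefore a bound, at least 7.39-fold higher for Arntl (log2 fold 3.42 ± 0.31, adjusted p = 1.37e-05) and at least 4.95-fold higher for Npas2 (log2 fold 3.61 ± 0.27, adjusted p = 1.62e-06). Such bounds set the mean at 12 h against the noise level or the 3 h values, whichever was higher. Clock (1418659_at) was already at 8.92, 8.98 and 9.13 at 3 h and reached 9.51, 9.69, 9.44 and 9.75 at 12 h, a smaller rise (log2 fold 0.59 ± 0.09, adjusted p = 0.00172). Arntl2, a paralog of Arntl, stayed under the noise level on every vehicle array.

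The Per and Cry repressors were mostly lower at 12 h. Per2 (1417602_at) read 9.35, 9.42 and 8.60 at 3 h and 5.86, 6.60, 6.30 and 6.65 at 12 h (log2 fold -2.77 ± 0.40, adjusted p = 0.00113). Per3 (1421087_at) read 8.46, 8.50 and 8.27 at 3 h and 6.01, 6.09, 5.98 and 6.29 at 12 h (log2 fold -2.32 ± 0.20, adjusted p = 7.21e-06). For both genes every 12 h array lay near the noise level and well under the lowest 3 h array. Per1 (1449851_at) read 9.92, 9.83 and 9.84 at 3 h and 8.80, 8.53, 7.25 and 7.95 at 12 h (log2 fold -1.73 ± 0.36, adjusted p = 0.0103). The 3 h arrays of Per1 lay close together, while its 12 h arrays spread widely, and with the ratio set as a term Per1 was no longer called (adjusted p = 0.0869). Cry2 (1426383_at) fell from 9.56, 9.57 and 9.35 to 8.27, 8.42, 8.00 and 8.68 (log2 fold -1.15 ± 0.18, adjusted p = 0.00172). Cry1 behaved otherwise, with 8.27, 8.22 and 7.68 at 3 h and 8.06, 8.30, 8.70 and 8.64 at 12 h, overlapping groups and no call (log2 fold 0.37 ± 0.22, adjusted p = 0.353). Bhlhe40 (1418025_at), a bHLH repressor that competes at E-boxes, fell from 10.16, 9.94 and 9.49 to 8.17, 8.54, 8.74 and 8.53 (log2 fold -1.37 ± 0.17, adjusted p = 0.000453). Its paralog Bhlhe41 lay near or under the noise level on every vehicle array and was not called.

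Among the nuclear receptors of the loop, the repressors fell and their competitors for the ROR element were not called. Nr1d1 (1426464_at), which encodes REV-ERB alpha, read 9.12, 9.26 and 9.26 at 3 h and 5.93, 6.09, 4.00 and 4.76 at 12 h (log2 fold -4.02 ± 0.56, adjusted p = 0.000916). Replicates 3 and 4 at 12 h lay under the noise level, so the fitted fold of Nr1d1 rests in part on noise. Nr1d2 (1416958_at), REV-ERB beta, read 11.29, 11.46 and 11.32 at 3 h and 9.28, 9.45, 8.34 and 8.46 at 12 h (log2 fold -2.48 ± 0.35, adjusted p = 0.00107). In Nr1d1, Nr1d2 and Per1 alike, 12 h replicates 1 and 2 were the higher and 3 and 4 the lower. Rora (log2 fold -0.42, adjusted p = 0.0811) was not called, and Rorb was under the noise level on every vehicle array. Not called either were Csnk1d (log2 fold 0.01), a kinase of PER proteins, and Timeless (log2 fold -0.26), a replication fork protein. Csnk1e, a kinase that marks PER proteins for degradation, was called lower (log2 fold -0.33 ± 0.09, adjusted p = 0.0387), but lost the call in 6 of the 7 fits that left out 1 vehicle array (adjusted p = 0.14 without HBSS 3 h replicate 1), was not called with the ratio set as a term (adjusted p = 0.0505) and had a positive fold without scaling between arrays (0.48).

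**Figure D1:**
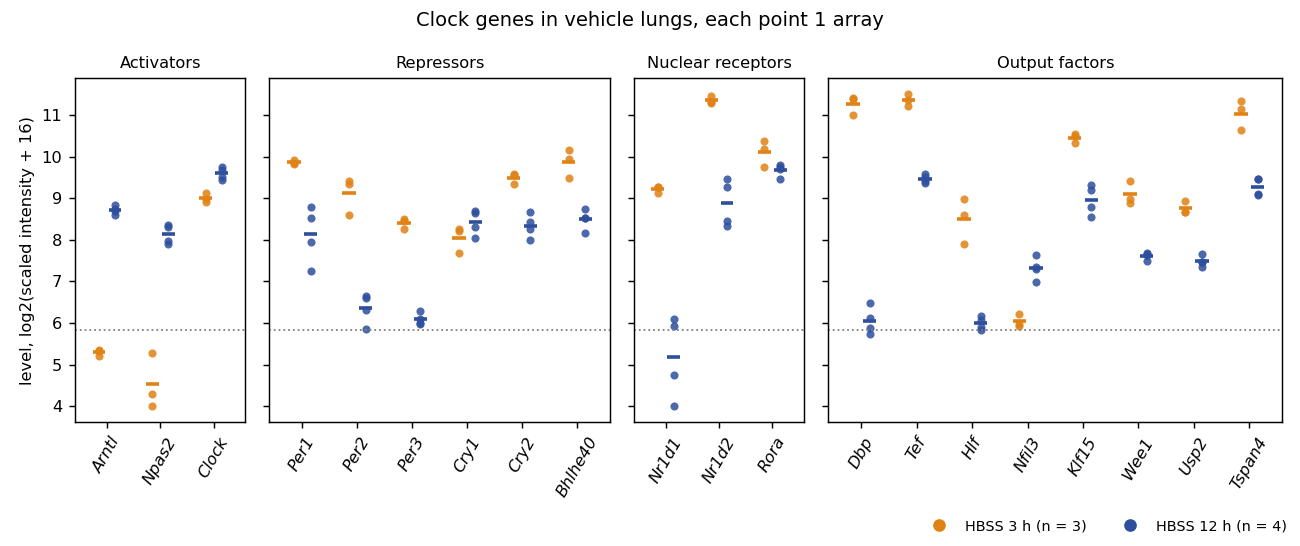
Level of 20 clock genes on the 7 vehicle arrays, as log2(scaled intensity + 16) on the vertical axis. Each point is 1 array, each bar a group mean and the dotted line the noise level of 5.83; Arntl and Npas2 lie under it on every 3 h array, and Dbp and Nr1d1 come down to it at 12 h.

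Most clock output factors were lower at 12 h. Dbp (1438211_s_at), a PAR bZip activator of D-box genes, had the lowest log2 fold on the array, with 11.41, 11.39 and 11.01 at 3 h and 6.49, 6.11, 5.89 and 5.73 at 12 h (log2 fold -5.22 ± 0.29, adjusted p = 3.67e-08). Tef (1424175_at), of the same family, read 11.36, 11.50 and 11.21 at 3 h and 9.41, 9.37, 9.50 and 9.58 at 12 h (log2 fold -1.89 ± 0.13, adjusted p = 5.2e-07). Hlf (1434735_at) read 8.99, 8.60 and 7.90 at 3 h and 5.91, 5.83, 6.18 and 6.09 at 12 h (log2 fold -2.50 ± 0.34, adjusted p = 0.000739). The 3 PAR bZip genes thus fell on every array, Dbp to the noise level and Tef to a level that was still bright. Nfil3 (1418932_at), a bZip repressor of the same D-box genes, moved the other way, from 6.23, 5.97 and 5.92 to 7.31, 7.34, 6.98 and 7.63 (log2 fold 1.27 ± 0.21, adjusted p = 0.00296).

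Other clock-controlled genes were lower as well. Klf15 (1448181_at), a Krüppel-like factor of amino acid and glucose metabolism, read 10.51, 10.53 and 10.32 at 3 h and 9.21, 9.31, 8.55 and 8.78 at 12 h (log2 fold -1.49 ± 0.29, adjusted p = 0.0067), and was not called with the ratio set as a term (adjusted p = 0.0835). Wee1, the kinase that holds cells before mitosis, fell from 8.99, 9.42 and 8.89 to 7.50, 7.63, 7.67 and 7.66 (log2 fold -1.48 ± 0.22, adjusted p = 0.00153). Usp2, a deubiquitinase, fell from 8.94, 8.68 and 8.67 to 7.47, 7.47, 7.35 and 7.67 (log2 fold -1.27 ± 0.16, adjusted p = 0.000435). In these 3 genes every 3 h array stood far over every 12 h array. Tspan4, a tetraspanin, fell from 11.33, 11.14 and 10.64 to 9.45, 9.09, 9.47 and 9.08 (log2 fold -1.76 ± 0.18, adjusted p = 8.96e-05). Herpud1, a factor of protein degradation at the endoplasmic reticulum, changed less (log2 fold -0.73 ± 0.16, adjusted p = 0.0123), and without HBSS 3 h replicate 1 it was not called (adjusted p = 0.0666); its fold was 0.05 without scaling between arrays. Klf9 lay just outside the threshold (log2 fold -0.80 ± 0.24, adjusted p = 0.0516), and Tsc22d3 (log2 fold -0.85), Klf10 (log2 fold -0.12) and Cirbp (log2 fold 0.35) were not called.

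Most of these clock genes were called in the same direction in lungs that had received albumin or the fungal extract, measured in other mice. Arntl had a log2 fold of 2.67 in BSA and 2.12 in MACA lungs, Npas2 2.02 and 2.50, Dbp -5.12 and -5.12, Nr1d1 -3.60 and -4.81, Per2 -2.98 and -1.84, Per3 -1.75 and -2.18 and Tef -1.71 and -2.02. All of these values passed the threshold in their own comparison. In BSA lungs 2 core clock genes were called higher and 7 lower (2.68% and 1.5% of all genes), and in MACA lungs 3 higher and 9 lower (5.24% and 4.94%). Inside the arrays with the high control ratio alone, where 3 BSA 3 h arrays stood against 2 BSA 12 h arrays, the log2 folds were 2.60 for Arntl, 2.33 for Npas2, -4.70 for Dbp, -2.81 for Nr1d1 and -2.89 for Per2, and each was called. Within that set 2 core clock genes were called higher and 6 lower in BSA lungs. Of the output factors 1 was called higher and 5 lower there, against 1 and 9 over all BSA arrays. This comparison holds no 12 h vehicle lung, and the part of the ratio set in the vehicle changes was not tested. Wee1 (log2 fold -1.33 in BSA and -0.16 in MACA lungs) and Usp2 (-0.85 and -0.30) were called in BSA and not in MACA lungs, and the difference between the vehicle and MACA changes was itself called for both, at -1.33 ± 0.32 for Wee1 (adjusted p = 0.0325) and -0.98 ± 0.22 for Usp2 (adjusted p = 0.0286). The part of the ratio set in these differences was not tested.

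**Figure D2:**
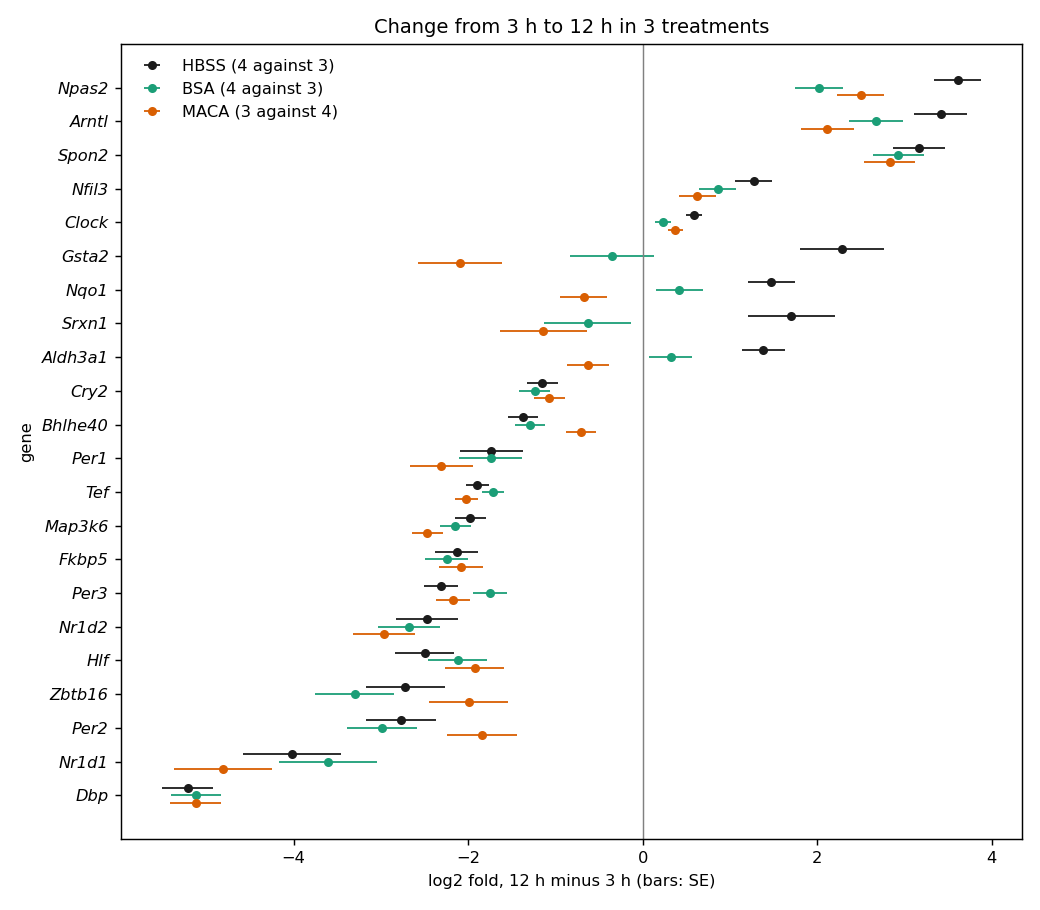
Log2 fold, 12 h minus 3 h, of 22 genes in HBSS, BSA and MACA lungs, with standard errors as bars on the horizontal axis. Each clock gene lies on the same side of 0 in the 3 treatments, with Dbp at -5.22, -5.12 and -5.12 and Npas2 further apart at 3.61, 2.02 and 2.50; Gsta2, Nqo1, Srxn1 and Aldh3a1 lie further right in HBSS than in MACA lungs, by 4.38, 2.15, 2.84 and 2.01.

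Genes induced by glucocorticoids were lower at 12 h. Of 24 measured, 0 were higher and 10 lower (3.58% of all genes were lower), 22 had a negative log2 fold, and the median was -0.77. Set against all genes the list's median was -0.68 without scaling between arrays and -0.81 with median scaling. This list shares Per1, Klf15, Klf9 and Tsc22d3 with the clock lists. Zbtb16 (1419874_x_at), a zinc finger repressor, read 10.50, 10.09 and 8.29 at 3 h and 6.94, 6.62, 7.05 and 7.02 at 12 h (log2 fold -2.72 ± 0.45, adjusted p = 0.00289). Fkbp5 (1416125_at), the immunophilin that restrains the glucocorticoid receptor, read 9.58, 9.86 and 8.58 at 3 h and 7.38, 7.30, 7.23 and 6.92 at 12 h (log2 fold -2.13 ± 0.25, adjusted p = 0.000271). HBSS 3 h replicate 3 was the lowest of the 3 h arrays for both genes, yet lay over every 12 h array. Hif3a, a hypoxia-inducible factor subunit, fell from 7.44, 7.87 and 7.13 to 5.99, 5.82, 5.69 and 5.13 (log2 fold -1.82 ± 0.32, adjusted p = 0.00395), with 3 of the 12 h arrays under the noise level. Mt1, a metallothionein, fell from 11.25, 11.14 and 10.71 to 10.07, 9.83, 9.84 and 9.90 (log2 fold -1.12 ± 0.24, adjusted p = 0.0121). Angptl4, an inhibitor of lipoprotein lipase, was also called lower (log2 fold -1.49 ± 0.39, adjusted p = 0.0311) and lost the call in 5 of the 7 fits without 1 vehicle array (adjusted p = 0.106 without HBSS 3 h replicate 2). Without HBSS 3 h replicate 1 Mt1 was not called (adjusted p = 0.0682). The remaining called members, named after their values were seen, were Sult1a1 (log2 fold -1.24), a sulfotransferase, Mertk (log2 fold -0.75), an efferocytosis receptor, and Glul (log2 fold -0.49), glutamine synthetase. Mertk was not called without HBSS 3 h replicate 2 (adjusted p = 0.102), and Mertk and Glul had positive folds without scaling between arrays.

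The list was not lower throughout. Sgk1 (log2 fold -0.18), Dusp1 (log2 fold 0.16), Nfkbia (log2 fold -0.02) and Anxa1 (log2 fold 0.16), all textbook glucocorticoid targets, were not called, and Sgk1 and Anxa1 are named after their values were seen. In BSA lungs 13 members and in MACA lungs 14 members were called lower (1.5% and 4.94% of all genes), and 0 were called higher in either. Within the arrays of high control ratio 2 members were called lower in BSA lungs, where 120 genes in all were called. Zbtb16 had a log2 fold of -3.30 in BSA and -1.99 in MACA lungs, and Fkbp5 -2.25 and -2.08. Hif3a (-0.96 and -0.47) and Mertk (0.09 and 0.02) were called in neither, and the difference between the vehicle and MACA changes was not called for them (adjusted p = 0.112 and 0.117). With the ratio set as a term 3 members were called lower, without Hif3a (adjusted p = 0.0629), Per1 (0.0869), Klf15 (0.0835), Mt1 (0.093), Angptl4 (0.301), Mertk (0.115) and Glul (0.088), and leaving out 1 vehicle array at a time gave 7 to 11. Map3k6, a stress-activated kinase outside the lists, fell from 8.78, 8.75 and 8.08 to 6.77, 6.51, 6.49 and 6.45 (log2 fold -1.98 ± 0.18, adjusted p = 1.37e-05), with log2 folds of -2.15 in BSA and -2.47 in MACA lungs.

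Genes of fasting and fuel switching, which liver and muscle use to turn from glucose to fat, leaned the same way. Of 21 measured, 0 were higher and 5 lower (3.58% of all genes were lower), with a median log2 fold of -0.25, and with the ratio set as a term 2 were called lower, without Foxo3 (adjusted p = 0.0734) and Lpin1 (0.112). Beside Angptl4 these were Foxo3 (log2 fold -0.77 ± 0.16, adjusted p = 0.0109), a factor active when insulin is low, Lpin1 (log2 fold -0.71 ± 0.15, adjusted p = 0.0118), a phosphatidate phosphatase, and Cpt1a (log2 fold -0.56 ± 0.12, adjusted p = 0.0129), the entry enzyme of mitochondrial fatty acid oxidation, with Acaa2 (log2 fold -0.55), a thiolase named after its value was seen. Pdk4, the kinase that shuts off pyruvate oxidation, also named after its values were seen, was not called in vehicle lungs (log2 fold -1.20 ± 0.41, adjusted p = 0.0884) and was called in BSA (-2.08) and MACA lungs (-1.48). Within the arrays of high control ratio 0 members of this list were called in BSA lungs. Leaving out 1 vehicle array gave 0 to 5 called members, with Foxo3 (adjusted p = 0.0654), Lpin1 (0.0751) and Cpt1a (0.0727) lost without HBSS 3 h replicate 1. Foxo3, Lpin1 and Cpt1a had positive folds without scaling between arrays.

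Cholesterol synthesis and uptake genes were the process list with the highest share of members called higher, 9 of 27, with 0 lower and a median log2 fold of 0.36 (3.82% of all genes were higher). Set against all genes the list's median was 0.42 without scaling between arrays and 0.33 with median scaling, where 5 members were called, without Scd1 (adjusted p = 0.342). Cyp51, the sterol demethylase, read 7.79, 8.09 and 7.85 at 3 h and 8.51, 8.86, 8.48 and 8.67 at 12 h (log2 fold 0.72 ± 0.12, adjusted p = 0.00229). Stard4, a carrier of cholesterol between membranes, read 9.38, 9.35 and 9.53 at 3 h and 10.08, 10.28, 10.26 and 9.88 at 12 h (log2 fold 0.70 ± 0.11, adjusted p = 0.00208). Groups did not overlap in either gene, although the changes were under 2-fold. Scd1, the stearoyl-CoA desaturase, rose from 12.21, 12.49 and 12.54 to 13.03 ± 0.04 (SD, n = 4) at 12 h, with no 12 h array over 13.09 (log2 fold 0.62 ± 0.16, adjusted p = 0.0276), and Fdft1, squalene synthase, had a log2 fold of 0.56 (adjusted p = 0.0231). The other called members, named after their values were seen, lay between 0.47 and 0.48 and were Scd2, Msmo1, Hmgcs1, Sc5d and Idi1. The factors that drive the pathway, also named after their values were seen, were not called, with log2 folds of 0.06 for Srebf2 and 0.20 for Srebf1, nor was Sqle, squalene epoxidase (0.53, adjusted p = 0.0792). The summed intensity of the 27 members was 27359 to 29531 over the 3 h arrays and 35803 to 37341 over the 12 h arrays. In BSA lungs 6 members were called higher and 1 lower, with 0 called in either direction within the arrays of high control ratio, and in MACA lungs 10 higher and 1 lower. Over all genes 2.68% were called higher and 1.5% lower in BSA lungs, and 5.24% and 4.94% in MACA lungs. With the ratio set as a term 6 were called higher, and leaving out 1 vehicle array gave 3 to 8. Scd1 (adjusted p = 0.136), Scd2 (0.0817) and Msmo1 (0.103) were lost without HBSS 3 h replicate 1, Fdft1 (0.0896) and Idi1 (0.0962) without replicate 3 and Sc5d (0.141) without replicate 2 of that group, while Cyp51, Stard4 and Hmgcs1 were called in all 7 fits.

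A few detoxification genes of the Nrf2 type were higher in vehicle lungs at 12 h. Of 21 metallothionein and Nrf2 genes, 3 were higher and 1, Mt1, lower (3.82% and 3.58% of all genes), 8 had negative folds and the median was 0.16. Gsta2 (1421040_a_at), a glutathione transferase, read 7.52, 7.09 and 7.18 at 3 h and 9.88, 10.41, 8.48 and 9.41 at 12 h (log2 fold 2.28 ± 0.48, adjusted p = 0.0111). Nqo1 (1423627_at), a quinone reductase, read 6.35, 6.14 and 5.98 at 3 h and 8.04, 8.09, 7.04 and 7.33 at 12 h (log2 fold 1.47 ± 0.27, adjusted p = 0.00483). Srxn1 (1426875_s_at), sulfiredoxin, read 7.41, 7.55 and 7.75 at 3 h and 10.03, 10.09, 8.19 and 8.79 at 12 h (log2 fold 1.70 ± 0.50, adjusted p = 0.0499). In all 3 genes 12 h replicates 1 and 2 were the highest arrays, and Srxn1 lost its call in 6 of the 7 fits without 1 vehicle array (adjusted p = 0.156 without HBSS 3 h replicate 1). Some members that were not called, chosen after their values were seen, also stood highest on 12 h replicates 1 and 2. They were Gpx2, a glutathione peroxidase, at 10.58, 10.49, 9.04 and 9.81, Slc7a11, the cystine carrier, at 7.06, 7.63, 5.08 and 5.67, and Gclm, a subunit of glutathione synthesis, at 10.10, 10.17, 9.31 and 9.40. Aldh3a1, an aldehyde dehydrogenase outside the list, rose from 7.31, 7.62 and 8.10 to 8.92, 9.01, 8.89 and 9.42 (log2 fold 1.38 ± 0.24, adjusted p = 0.00422), without that order.

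These rises were not called in the other treatments. Gsta2 had a log2 fold of -0.35 in BSA lungs (adjusted p = 0.75) and was called lower in MACA lungs (-2.10, adjusted p = 0.012). The change in vehicle minus the change in MACA lungs was 4.38 ± 0.68 for Gsta2 (adjusted p = 0.00648), 2.84 for Srxn1 (0.0394), 2.15 for Nqo1 (0.0121) and 2.01 for Aldh3a1 (0.0113). The same difference from BSA lungs was not called for these genes. All HBSS 12 h arrays had a low control ratio and all MACA 12 h arrays a high one. With the ratio set as a term, the vehicle and MACA changes differed for 370 probe sets, against 660 without it. The part of the ratio set in the differences of these genes was not tested. Within the arrays of high control ratio Gsta2 had a log2 fold of 0.66 in BSA lungs (adjusted p = 0.13). With the ratio set as a term 8 members of the list were called higher in vehicle lungs.

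**Figure D3:**
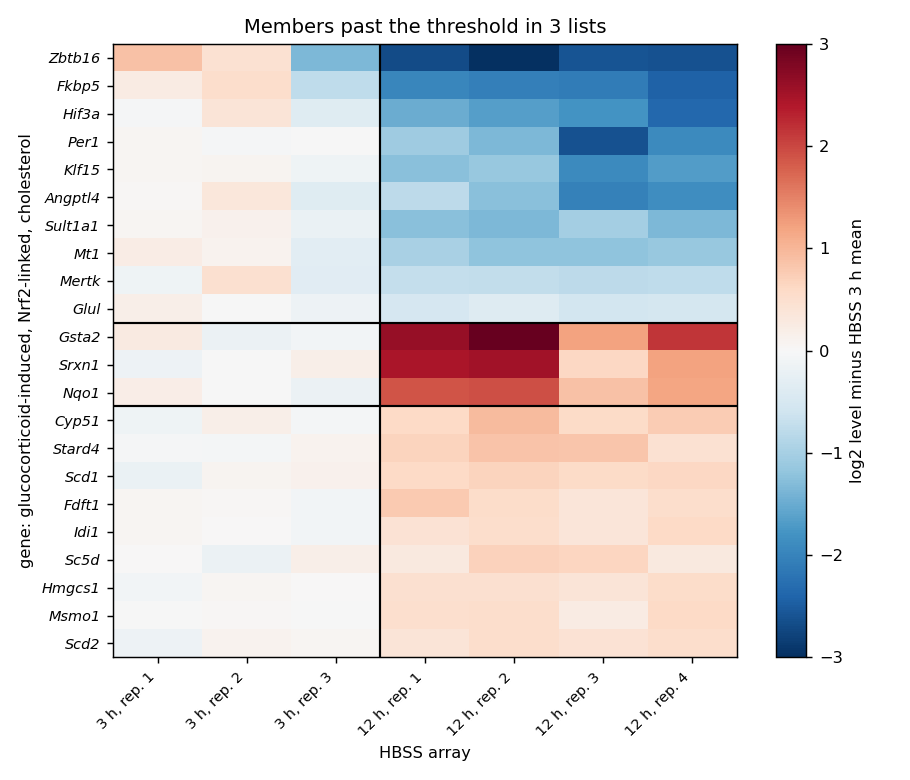
Called members of 3 lists on the 7 vehicle arrays (columns), coloured by log2 level minus the mean of the 3 h arrays. Glucocorticoid-induced genes (top) are blue on all 4 arrays at 12 h, cholesterol genes (bottom) are pale red on all 4, and Gsta2, Srxn1 and Nqo1 (middle) are darker on 12 h replicates 1 and 2 than on 3 and 4.

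Several single genes outside the lists were among the 15 highest or 15 lowest folds. Spon2 (1417860_a_at), a secreted matrix protein of the spondin family, rose from 5.20, 5.83 and 6.34 to 8.70, 8.93, 9.06 and 9.14 (log2 fold 3.17 ± 0.29, adjusted p = 1.86e-05), with 2 of the 3 h arrays at or under the noise level, and by 2.93 in BSA and 2.83 in MACA lungs. Nme6, a nucleoside diphosphate kinase, lay under the noise level on every 3 h array, and its level at 12 h was at least 1.85-fold over that bound (adjusted p = 0.00799; 0.115 with the ratio set as a term). Spire2, an actin nucleator, was at least 1.7-fold higher (adjusted p = 0.00396). Sptssb, a subunit of serine palmitoyltransferase, rose from 5.31, 5.60 and 5.93 to 7.53, 8.01, 6.41 and 6.74 (log2 fold 1.56 ± 0.35, adjusted p = 0.0156), again with replicates 1 and 2 highest and with 2 of the 3 h arrays under the noise level, so that its fold rests in part on noise, and was not called without HBSS 3 h replicate 1 (adjusted p = 0.0806). Fbxo2 (log2 fold 1.45), a ligase subunit that binds glycoproteins, Ppp1r3c (log2 fold 1.23), which targets a phosphatase to glycogen, and Glipr2 (log2 fold 1.18) were higher too. Fbxo2 (adjusted p = 0.0662) and Ppp1r3c (0.0763) lost their calls without HBSS 3 h replicate 1, and Glipr2 (0.0673) and Ppp1r3c (0.243) with the ratio set as a term. Among the lowest were Plekhh3 (log2 fold -1.73, adjusted p = 0.0212) and Cys1 (log2 fold -1.67, adjusted p = 0.00946), a protein of the primary cilium, which was not called without HBSS 3 h replicate 1 (adjusted p = 0.0518). Plekhh3 read 6.73, 6.58 and 7.71 at 3 h and 4.64, 4.58, 5.45 and 6.45 at 12 h, so 3 of its 12 h arrays lay under the noise level and its fold rests in part on noise, and lost its call in 4 of the 7 fits without 1 vehicle array (adjusted p = 0.105 without HBSS 3 h replicate 3).

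Of 32 chemokines and inflammatory cytokines, 2 were higher and 2 lower, which is 12.5% called against 7.4% of all genes, and 12 had an unadjusted p under 0.05. The list's median log2 fold was -0.30, with 25 negative and 7 positive folds. Cxcl5, a neutrophil chemokine made by alveolar epithelium, read 5.85, 5.10 and 4.00 at 3 h and 6.96, 7.13, 8.03 and 6.63 at 12 h (log2 fold 2.20 ± 0.59, adjusted p = 0.0335). Cxcl15, lungkine, rose slightly from 12.76, 12.75 and 12.85 to 13.07, 13.05, 13.14 and 13.10 (log2 fold 0.30 ± 0.06, adjusted p = 0.00483), but its fold was 0.04 with arrays scaled to one median (adjusted p = 0.972), and it was not called with the ratio set as a term (adjusted p = 0.0572). Both Cxcl5 and Cxcl15 had separate groups, but Cxcl5 lay at or under the noise level at 3 h and lost its call in 5 of the 7 fits without 1 vehicle array (adjusted p = 0.152 without HBSS 3 h replicate 3). The fold of Cxcl5 thus rests in part on noise, and with an offset of 64 it was 1.25 and not called (adjusted p = 0.0851). Nor was Cxcl5 called when only the vehicle arrays were fitted (adjusted p = 0.062). Lower were Csf2, a growth factor of alveolar macrophages (log2 fold -1.01, adjusted p = 0.0496), and Il33, an alarmin of epithelium (log2 fold -0.79, adjusted p = 0.0407). Both lost the call without HBSS 3 h replicate 1 (adjusted p = 0.232 for Csf2 and 0.167 for Il33). Of the 7 fits without 1 vehicle array, Csf2 was called only in that without HBSS 3 h replicate 3 (adjusted p = 0.0248). With an offset of 64 Csf2 was not called (adjusted p = 0.0798). Among genes named after their values were seen, Cxcl1 (-0.82) and Cxcl2 (-0.85), which attract neutrophils, and Ccl2 (-0.58), which attracts monocytes, were not called, and Tnf lay under the noise level on every vehicle array. Ccl20, a chemokine for dendritic cells, was not called either (log2 fold 2.37, adjusted p = 0.122), and its 12 h arrays read 7.97, 8.01, 5.28 and 6.49. Of 15 NF-kB feedback genes 1 was lower, Birc3 (log2 fold -0.46), which lost its call in 4 of the 7 fits without 1 vehicle array (-0.295, adjusted p = 0.183 without HBSS 3 h replicate 1), with the ratio set as a term (adjusted p = 0.115), and had a positive fold without scaling between arrays. Of 27 interferon-stimulated genes 0 were called by limma, with 3 at an unadjusted p under 0.05. Of 24 immediate early genes, Egr1 (log2 fold 1.06 ± 0.31, adjusted p = 0.0485) and Ier5 (log2 fold 0.51) were higher, and lost their calls without HBSS 3 h replicate 3 (adjusted p = 0.183 and 0.131). Fos (0.22) and Nr4a1 (0.72), named after their values were seen, were not called. With the ratio set as a term Egr1 (adjusted p = 0.328), Ier5 (0.359) and Il33 (0.464) were not called, and with arrays scaled to one median Egr1 (0.0829), Ier5 (0.0646) and Csf2 (0.0646) were not. Egr1 stood highest on 12 h replicate 3, at 11.62 against 10.20 to 10.76 on the other 12 h arrays. Of 20 acute phase genes, 2 fibrinogen chains, Fga and Fgg, were called lower (not so without HBSS 3 h replicate 1, with adjusted p = 0.0711 and 0.159), but all of their 12 h arrays lay under the noise level and no 3 h array exceeded 6.39.

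Stress, growth and housekeeping lists ran from 0 to 17.2% called, against 7.4% of all genes. Of 30 heat shock and chaperone genes 1 was higher and 1 lower. Hsp90b1, the chaperone of the endoplasmic reticulum, had a log2 fold of 0.49 (adjusted p = 0.0132) and Dnajb1, a cochaperone, of -0.62 (adjusted p = 0.0189). Calr, calreticulin, was higher as well (log2 fold 0.48, adjusted p = 0.0163), and of 28 unfolded protein and Atf4 genes 2 were higher and 1 lower. Of 28 cell cycle genes 1 was higher and 2 lower, with Mcm3, a replication helicase subunit, at 0.56, and Ccnd3, a cyclin, at -0.57. Ribosomal protein genes had 4 of 29 higher and 1 lower, with Rpl37 highest at 0.46 and Rpl41 at -0.46. Oxidative phosphorylation genes had 1 of 47 higher, Sdhc (0.29), and 1 lower, Atp5o (-0.32). Without HBSS 3 h replicate 1 Hsp90b1 (adjusted p = 0.078), Dnajb1 (0.0804), Calr (0.089), Mcm3 (0.197), Rpl41 (0.0843) and Timp3 (0.0527) were not called, nor were Sdhc (0.092) and Atp5o (0.134) without replicate 3 and Rpl37 (0.0902) without replicate 2 of that group. With arrays scaled to one median Hsp90b1 (0.141), Calr (0.421), Mcm3 (0.0561) and Rpl41 (0.0502) were not called, and with the ratio set as a term Hsp90b1 (0.0619), Dnajb1 (0.194), Calr (0.307), Mcm3 (0.511), Rpl37 (0.0822), Rpl41 (0.105) and Atp5o (0.263) were not. In the matrix list Eln, elastin, rose from 9.46, 9.95 and 9.99 to 11.04, 10.84, 10.87 and 11.15 (log2 fold 1.18 ± 0.17, adjusted p = 0.00112). Ccnd3, Dnajb1, Rpl41, Atp5o and Timp3 had positive folds without scaling between arrays. Timp3, an inhibitor of metalloproteinases, was lower (log2 fold -0.67, adjusted p = 0.012), and the other 24 measured members of that list, were not called. Of 10 MHC class II genes 0 were called by limma, with 0 at an unadjusted p under 0.05, and of 19 coagulation genes 0, with 4 at an unadjusted p under 0.05.

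**Figure D4:**
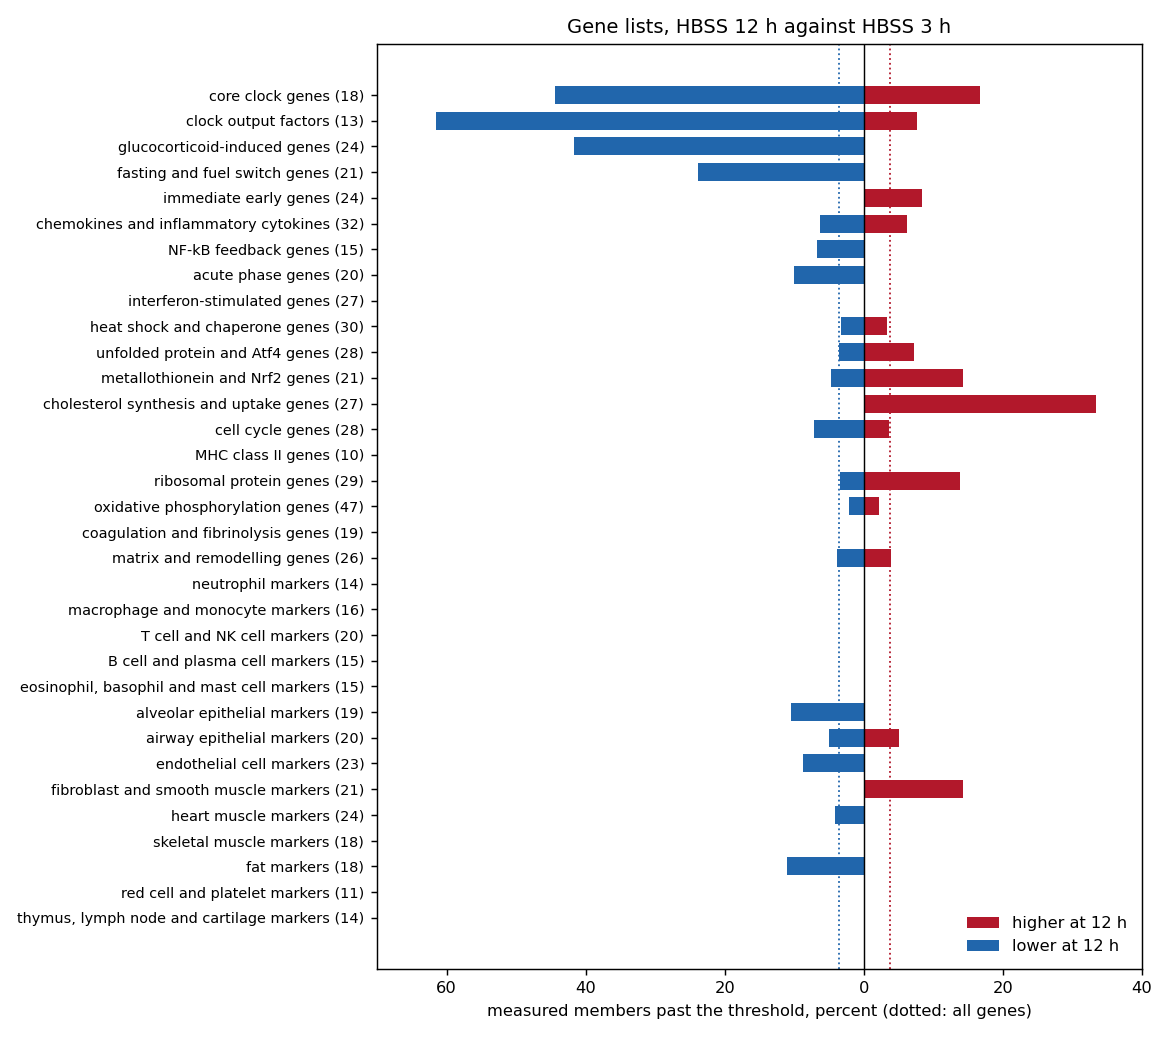
Percent of the measured members (number in brackets) of 33 gene lists called higher (red, right) or lower (blue, left) at 12 h in vehicle lungs, with dotted lines at 3.82% and 3.58%, the shares over all genes. The clock, clock output, glucocorticoid and fasting lists reach far to the left and the cholesterol list to the right.

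Among markers of blood-borne and muscle cells 1 gene was called. Of 14 neutrophil markers 0 were called by limma, with 0 at an unadjusted p under 0.05, and their summed intensity was 2658 to 7888 at 3 h and 3542 to 7131 at 12 h. S100a9, a neutrophil calprotectin subunit, read 10.57, 9.89 and 8.35 at 3 h and 10.28, 10.01, 9.94 and 8.28 at 12 h, so the spread within each time exceeded the difference. Macrophage and monocyte markers had 0 of 16 called, with 4 at an unadjusted p under 0.05, and summed to 26340 to 31493 and 27221 to 29661. No call was made by limma among 20 markers of T and NK cells (0 at an unadjusted p under 0.05), 15 of B and plasma cells (2), 15 of mast cells, basophils and eosinophils (2), 11 of red cells and platelets (1), 18 of skeletal muscle (1) and 14 of thymus, lymph node and cartilage (1). Of 24 heart muscle markers 1 was lower, Tcap, telethonin of the sarcomere (log2 fold -1.03 ± 0.23, adjusted p = 0.013; 0.0605 without HBSS 3 h replicate 2), while their summed intensity was 10113 to 17579 at 3 h and 13347 to 22545 at 12 h.

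Lists of the lung's structural cells had 8.70% to 14.3% of members called, against 7.4% of all genes. Of 19 alveolar epithelial markers 2 were lower, Sftpc (log2 fold -0.19 ± 0.05, adjusted p = 0.0227) and Ager, of alveolar type 1 cells (log2 fold -0.32 ± 0.09, adjusted p = 0.0363), and the list summed to 98910 to 100500 at 3 h and 85626 to 96175 at 12 h. Of 23 endothelial markers Ramp2 (log2 fold -0.26) and Lyve1 (log2 fold -0.48), a lymphatic receptor, were lower, with sums of 69299 to 70616 and 63704 to 70483. Of 21 fibroblast and smooth muscle markers 3 were higher, Lum, a collagen-binding proteoglycan (log2 fold 0.86), Actg2, smooth muscle actin (0.75), and Wnt2 (0.71), with sums of 49316 to 56804 and 53031 to 61720. Of 20 airway markers Agr2, of mucus-secreting cells, was called higher, with all 3 h arrays under the noise level and no 12 h array over 6.17, and Cyp2b10 (-0.50), a cytochrome P450, lower. Among 18 fat markers Dgat2 (log2 fold -1.14), of triglyceride synthesis, and Lpl (-0.60), lipoprotein lipase, were lower. With arrays scaled to one median Sftpc (adjusted p = 0.296), Ager (0.0794), Ramp2 (0.105) and Actg2 (0.0597) were not called, and with the ratio set as a term Ager (0.227), Lyve1 (0.166), Actg2 (0.381), Wnt2 (0.0667) and Agr2 (0.104) were not. Of these genes only Cyp2b10 and Lpl kept their calls in all 7 fits without 1 vehicle array, and Dgat2 and Ramp2 lost theirs in all 7. Ager, Sftpc, Ramp2, Lyve1, Cyp2b10 and Lpl had positive folds without scaling between arrays. The part of cell composition in the clock, glucocorticoid and cholesterol changes was not tested.

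Over all called genes, clock genes included, agreement with the other treatments was partial. Of the 473 genes higher in vehicle lungs 70.8% had the same sign in BSA lungs and 14.2% were called higher there, and of the 444 lower genes 75.9% and 16.4%. Genes not called in vehicle lungs shared their sign in 53.7%. Of the 518 genes called in BSA lungs, 27.0% were called the same way in vehicle lungs. In MACA lungs 70.4% of the higher and 71.6% of the lower vehicle genes had the same sign. There 18.4% and 27.0% were called the same way, and genes not called in vehicle lungs shared their sign in 52.8%. Within the arrays of high control ratio, 70.6% of the higher and 78.2% of the lower vehicle genes had the same sign in BSA lungs. Called the same way in all 3 treatments were 32 genes higher and 58 lower, and of those at least 2-fold in vehicle lungs 5 were higher and 22 lower. The 5 were Npas2, Arntl, Spon2, Glipr2 and Klhl13, and those outside the lists and extremes were named after their values were seen. The 22 held Dbp, Nr1d1, Per2, Hlf, Nr1d2, Per3, Tef, Tspan4, Per1, Klf15, Bhlhe40 and Cry2 of the clock lists and Zbtb16, Fkbp5, Sult1a1 and Mt1 of the glucocorticoid list, with Map3k6, Rgcc, Pfkfb3, Tns2, Omd and Tcap outside both.

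**Figure D5:**
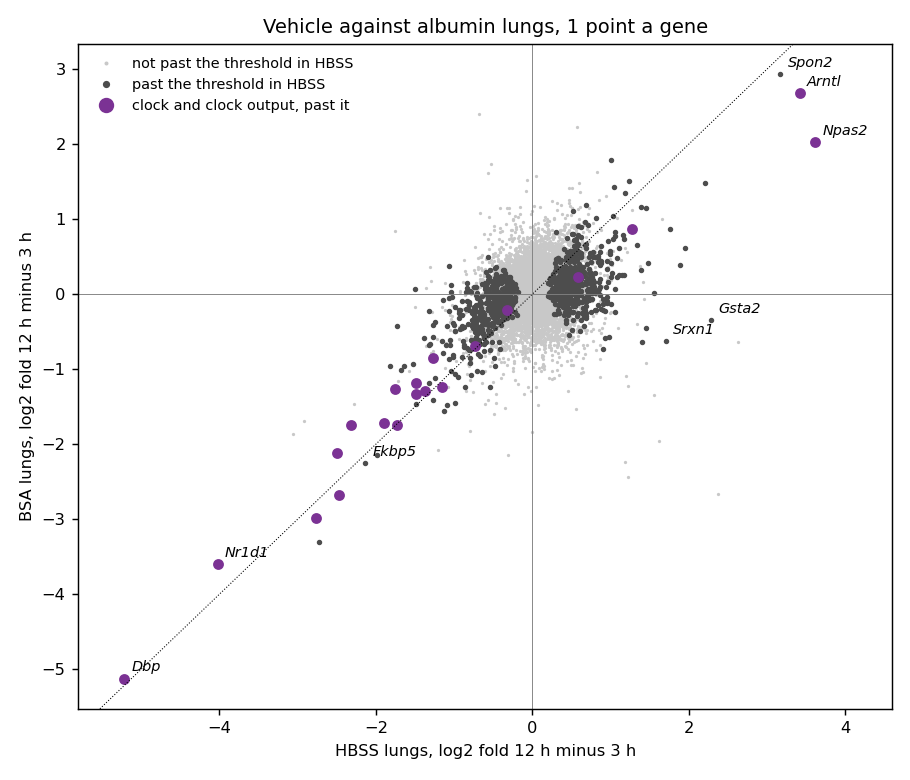
Log2 fold, 12 h minus 3 h, of 12393 genes in vehicle lungs (horizontal axis) and in BSA lungs (vertical axis), 1 point a gene, with dark points for genes called in vehicle lungs and purple points for called clock and clock output genes. The purple points follow the dotted line of equal change from Dbp at -5.22 and -5.12 to Arntl at 3.42 and 2.67, while Gsta2 and Srxn1 lie on the right, at -0.35 and -0.63 in BSA lungs.

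The number of genes whose change differed between vehicle and BSA lungs depended strongly on the fit. The difference between the 2 changes was called for 57 genes (0.46%), 41 of them also called in vehicle lungs, and the difference from MACA lungs for 403 genes (3.25%), 141 of them called in vehicle lungs. Spire2 read 5.35, 4.56 and 5.53 at 3 h and 6.81, 6.58, 6.57 and 6.42 at 12 h in vehicle lungs and its change differed from that in BSA lungs (adjusted p = 0.0319), with no size given since every 3 h vehicle array lay under the noise level. Others, chosen after their values were seen, were Fabp5, a fatty acid-binding protein of macrophages and epithelium (log2 fold 0.73 in vehicle and 0.15 in BSA lungs, difference adjusted p = 0.00461), Abcc1, a glutathione conjugate exporter (0.47 and -0.55, adjusted p = 0.00461), and Ybx1, an RNA-binding protein (-0.37 and 0.33, adjusted p = 0.00861). The count of genes that differed from BSA rested on the arrays used. It was 114 probe sets over all arrays, 2180 with the ratio set as a term, 15 when the HBSS and BSA arrays were fitted alone, 17 without HBSS 3 h replicate 1, 24 without HBSS 12 h replicate 2 and 393 without BSA 12 h replicate 2. It was 28 without BSA 3 h replicate 1 and without replicate 2, 41 and 40 without HBSS 3 h replicates 2 and 3, 71 and 39 without BSA 12 h replicates 1 and 3, and 46 and 66 without HBSS 12 h replicates 3 and 4. The difference from MACA, called for 660 probe sets, was called for 370 with the ratio set as a term. That count fell to 253 and 217 without HBSS 3 h replicates 1 and 3, 305 without HBSS 12 h replicate 2, 333 without MACA 3 h replicate 4 and 191 without MACA 12 h replicate 2.

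The count of 1569 probe sets depended on single vehicle arrays. It was 533 without HBSS 3 h replicate 1, 841 without HBSS 3 h replicate 3, 994 without HBSS 3 h replicate 2 and 728 without HBSS 12 h replicate 2. Of the 917 genes, 226 were called in all 7 fits that left out 1 vehicle array, 108 higher and 118 lower. Among these were Arntl, Npas2, Clock, Spon2, Nfil3, Dbp, Tef, Hlf, Nr1d1, Nr1d2, Per1, Per2, Per3, Cry2, Bhlhe40, Klf15, Wee1, Usp2, Tspan4, Zbtb16, Fkbp5 and Map3k6. The share of genes called rose with brightness, from 1.84% to 11.9% between the dimmest and the brightest of 4 equal classes.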

How the data were processed

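RNA of the snap-frozen left lung was purified on columns, and its labelled cRNA was hybridized, per the labels' protocols. The authors deposited 1 intensity per probe set and array on a linear scale, of which 9.38% to 11.2% lay below 0 on an array. Scanner software, summary and scaling: not given in the sources used here. Here 64 control probe sets were left out, arrays were quantile normalized, negative values became 0, and log2(value + 16) was computed; small values are compressed by the offset. The number of arrays limits the precision.

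limma (3.58.1, R 4.3.3) fitted 6 group means to 21 arrays (15 residual degrees of freedom), with Benjamini-Hochberg adjustment over 22626 probe sets. As noise level served the 95th percentile of absolute negative values. Of the probe sets 20380 had 1 gene symbol, 691 several and 1555 none, and symbols were updated through the RefSeq table of GRCm38.p6. Named were the measured members of 2 clock lists, the 15 highest and 15 lowest folds among called genes whose groups did not overlap and whose higher group lay above noise, and in each other list up to 4 called members and 2 bright ones that were not called. The text marks names chosen later. Members and lists (33 lists, 678 measured genes) were chosen with earlier results of these data known. The fit was tested on simulated data. Figures used python 3.11.15 and matplotlib 3.10.9.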

Additional observations from a re-analysis of the deposited data

Results flagged for a closer look

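A test looked for single distant arrays among the 4 HBSS 12 h arrays and divides the gap of the extreme array by the range of the group. It picked out 7 of the 149 named genes. The ratios were 0.94 for Fgg, 0.928 for Actc1, 0.887 for Klf2, 0.861 for Alas2, 0.845 for Birc3, 0.844 for Myl7 and 0.829 for S100a9. Chance alone picks out about 1 in 20 groups, and the count is near that share.

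For 16 named genes the change from 3 h to 12 h in vehicle lungs differed from that in MACA lungs, and for Spire2 it also differed from that in BSA lungs (1.90, adjusted p = 0.0319). The differences from MACA lungs, as log2 folds, were 4.38 for Gsta2 (adjusted p = 0.00648), 2.84 for Srxn1 (0.0394), 2.15 for Nqo1 (0.0121), 2.03 for Sptssb (0.0383), 2.01 for Aldh3a1 (0.0113), 1.98 for Spire2 (0.0128), 1.89 for Tcap (0.0105), 1.72 for Egr1 (0.0434), 1.26 for Eln (0.0163), 0.47 for Inmt (0.00648) and 0.40 for Rps28 (0.0418). Negative were the differences of Wee1 (-1.33, adjusted p = 0.0325), Usp2 (-0.98, 0.0286), Ccnd3 (-0.83, 0.00685), Atp5o (-0.68, 0.0124) and Rpl41 (-0.61, 0.0331). The sizes for Spire2 and Sptssb rest in part on noise, since 3 and 2 of their 3 h vehicle arrays lay under the noise level. All HBSS 12 h arrays had a low control ratio and all MACA 12 h arrays a high one. The part of the ratio set in the differences from MACA lungs was not tested.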

How the results depend on the processing

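The vehicle comparison called 1569 of 22626 probe sets. With 1 probe set a gene only 12393 were tested, so counts under that setting are out of a smaller total. The count was 12672 without scaling between arrays and 977 with 1 probe set a gene, and 533 to 1237 when 1 vehicle array was left out, and it stayed within 1.5 times under the other 8 settings (median scaling, offsets of 1 and 64, bright probe sets only, only the 7 arrays, the ratio set as a term, a replicate block and an intensity trend with robust variances). The BSA comparison called 771 probe sets, 31 without scaling, 368 with the ratio set as a term, 168 within the high ratio set and 184 to 1240 with 1 array left out. The MACA comparison called 2063, 125 without scaling, 1137 within the high ratio set and 933 to 1943 with 1 array left out. The difference between the vehicle and BSA changes was called for 114 probe sets. That count was 0 without scaling (limma, with 7174 at an unadjusted p under 0.05), 30 with median scaling, 52 and 200 with offsets of 1 and 64, 62 for bright probe sets, 34 with 1 probe set a gene, 15 with only the groups compared, 2180 with the ratio set as a term, 177 with a replicate block and 17 to 393 with 1 array left out. The difference from MACA was called for 660, and for 3431 without scaling, 370 with the ratio set as a term, 367 with a replicate block and 191 to 830 with 1 array left out. The settings of the BSA and MACA comparisons, other than those on the ratio set in BSA lungs, were chosen after seeing the data. The causes of these moves were not tested. The replicate block gave 1570 probe sets in the vehicle comparison, and 11 of 80 named called genes were not called with it. Same-numbered arrays deviated together by correlations of 0.112, 0.0998 and 0.0169, so the numbers are not taken to pair the lungs. Of the 80 named called genes, 30 were called the same way under every setting except the absence of scaling. Calls were lost for 25 of the 80 when only the 7 vehicle arrays were fitted. They were lost for 32 of the 80 with the ratio set as a term and for 39 without HBSS 3 h replicate 1. Without scaling, 53 of 149 named genes had the opposite sign. For 11 of these no fit of the 2 made a call, and the other 42, called with or without scaling, had log2 folds of 0.65 (Acadl), 0.34 (Ager), 0.47 (Atp5o), 0.37 (Birc3), 0.58 (Cav1), 0.70 (Ccnd2), 0.25 (Ccnd3), 0.78 (Cd1d1), 0.67 (Cd74), 0.69 (Cox6a1), 0.63 (Cox6b1), 0.26 (Cpt1a), 0.48 (Csnk1e), 0.68 (Cxcl12), 0.24 (Cyp2b10), 0.20 (Dnajb1), 0.79 (Fasn), 0.051 (Foxo3), 0.66 (Gata2), 0.46 (Gpx3), 0.58 (Gstm1), 0.62 (H2-Aa), 0.0505 (Herpud1), 0.57 (Hspa8), 0.69 (Icam1), 0.0322 (Il33), 0.72 (Klf2), 0.11 (Lpin1), 0.16 (Lpl), 0.28 (Lyve1), 0.39 (Lyz1), 0.53 (Mgp), 0.63 (Nfkbia), 0.64 (Pcna), 0.44 (Ramp2), 0.23 (Rpl41), 0.49 (Rplp2), 0.43 (Rps29), 0.31 (Sftpc), 0.56 (Timeless), 0.0591 (Timp3) and 0.66 (Txnip), against a shift of all genes by 0.72. With median scaling Rpl38 had a log2 fold of -0.0667. Dim probe sets near the noise level limit what can be called.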
